A study of Homo sapiens with 4 samples.

Results

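The 7SK RNA and the genes of its regulatory complex were followed in WI-38, a human lung fibroblast line of fetal origin whose cultures reach replicative senescence. The 7 genes were taken by name: RN7SK, which encodes the RNA, its protein partner genes LARP7, MEPCE and HEXIM1, and CDK9, CCNT1 and CCNT2, which encode the kinase that the complex holds. Together they have 36 annotated transcript rows among the 393483 rows of the files, and they are 7 of 51047 named genes. A gene's value is the sum of its annotated transcripts. The study holds 4 libraries with 1 library per group, and the labels name no treatment: whole cells at population doubling level (PDL) 21, labelled young, and PDL 60, labelled senescent, and mitoplasts of the same populations. A mitoplast is a mitochondrion without its outer membrane. Per the labels' protocols, mitochondria released with CHAPS detergent were swollen in hypotonic buffer and digested with RNase A before and after the mitoplasts were pelleted. With 1 library per group no difference has a replicate check, and a difference between conditions cannot be told apart from a difference between libraries.

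As background, 7SK is an abundant nuclear RNA made by RNA polymerase III. MEPCE caps its 5' end, LARP7 binds its 3' end, and HEXIM1 joins this particle to hold P-TEFb, the kinase CDK9 with cyclin T1 or T2, in an inactive form. When P-TEFb is released, it phosphorylates RNA polymerase II and its pausing factors, and paused polymerase moves into the gene body. Free P-TEFb also acts as part of the super elongation complex.

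The RNA that carries the main signal is an annotated transcript of 331 nt at chr6:52995620-52995950 on the plus strand of GRCh38, a gene of its own with no intron in GENCODE release 29. It holds the whole RN7SK entry of 328 nt with 1 further base at the 5' end and 2 at the 3' end. The build behind the deposited values is hg19, and these coordinates and sequences are from the GRCh38 annotation. The sequences are shown because the genome holds 287 annotated copies of 7SK (RN7SKP entries), and reads of near-identical copies can be assigned to either gene. The first 100 bases of RN7SK are given with those of RN7SKP255 (chr14:89712511-89712823, plus strand), RN7SKP203 (chr2:76445079-76445410, minus strand) and RN7SKP219 (chr10:21785292-21785587, plus strand), the copies at 20 FPKM or more in a library. Capitals mark each GATC. As GAUC in the RNA, the motifs of RN7SK at positions 42 and 64 are paired in the 5' hairpin to which HEXIM1 binds.
RN7SK: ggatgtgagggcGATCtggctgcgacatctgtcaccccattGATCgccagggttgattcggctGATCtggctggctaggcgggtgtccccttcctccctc
RN7SKP255: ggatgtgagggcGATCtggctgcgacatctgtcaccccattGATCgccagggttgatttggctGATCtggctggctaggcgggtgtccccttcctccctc
RN7SKP203: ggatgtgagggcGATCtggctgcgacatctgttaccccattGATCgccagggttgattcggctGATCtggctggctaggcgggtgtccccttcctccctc
RN7SKP219: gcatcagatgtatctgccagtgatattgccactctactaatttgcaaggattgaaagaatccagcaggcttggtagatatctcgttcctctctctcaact

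RN7SK, RN7SKP255 and RN7SKP203 share the GATC at positions 13, 42 and 64, counted from the first base of each transcript. Over these 100 bases RN7SKP255 and RN7SKP203 each matched RN7SK at 99 positions. RN7SKP219 aligned at 93 bases, matched at 62 of them and held no GATC anywhere in its 296 nt. Read on the transcript's own strand alone, GATC is common: 66.6% of the 5047 annotated transcripts of 300 to 360 nt held at least 1, and 10.3% held 3 or more. The last 50 bases set the copies apart from RN7SK, whose terminal stem and run of T (U in the RNA) are the part that LARP7 binds.
RN7SK, bases 282 to 331: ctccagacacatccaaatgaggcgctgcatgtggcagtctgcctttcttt
RN7SKP255, bases 264 to 313: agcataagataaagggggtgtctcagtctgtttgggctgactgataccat
RN7SKP203, bases 283 to 332: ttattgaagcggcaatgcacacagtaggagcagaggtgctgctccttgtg

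In this stretch RN7SKP255 matched 30 of 38 aligned bases and RN7SKP203 matched 30 of 37.

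The unit of all levels is FPKM, fragments scaled to transcript length and to the fragments mapped in the library, so levels are per length. Depth is unknown, since the files hold no counts and low values showed no common step per read. At 5 FPKM or more there were 8032 genes in the young and 7729 in the senescent whole-cell library, and 6658 and 5248 in the young and senescent mitoplast libraries. Assembled transcripts without a name, which enter no gene's value, held 53.7% of the summed FPKM in young and 76.2% in senescent whole cells, and 92.7% and 97.3% in the mitoplast libraries. None of them carried the locus identifier of any of the 7 genes, and overlap by position was not checked. All 10 fibroblast markers were at 5 FPKM or more in both whole-cell libraries and 9 of 10 in each mitoplast library, where PDGFRB was listed at 0 in young and VIM in senescent mitoplasts. Epithelial, endothelial and blood markers summed to between 0 and 32.5 FPKM per list and library, with at most 2 genes of a list at 5 FPKM or more, and KRT5, KRT14, CDH5, CD68, CD3E and HBA1 were listed at 0 in all 4. Other markers of these lists were not: the endothelial gene TEK was at 28.8 and 24.8 FPKM in the young and senescent whole-cell libraries, and VWF at 23.3 FPKM in senescent mitoplasts. The leukocyte gene PTPRC was at 12.4 FPKM and the epithelial KRT19 at 8.30 FPKM in young mitoplasts. Their part in the results was not tested. Of the fraction markers, the mitochondrial MT-CYB was at 4257 and 14663 FPKM in young and senescent whole cells and at 16952 and 29903 FPKM in the mitoplasts. It was the 1 of 4 mitochondrial markers above 0 in every library: MT-CO1 was at 8540 and 34115 FPKM in the young whole-cell and mitoplast libraries and listed at 0 in both senescent ones, MT-ND1 was listed at 0 in senescent mitoplasts, and MT-RNR2 in senescent whole cells. MALAT1, a nuclear RNA, was at 1265 and 2305 FPKM in whole cells and at 89.0 and 507 FPKM in mitoplasts. NEAT1, also nuclear, was at 12.6 and 24.3 FPKM in whole cells, at 2.67 FPKM in young mitoplasts and listed at 0 in senescent mitoplasts. GAPDH, a cytosolic mRNA, was at 953 and 863 FPKM in whole cells and at 1818 and 368 FPKM in mitoplasts. ACTB, also cytosolic, was at 5349 and 3786 FPKM in whole cells and at 3176 and 533 FPKM in mitoplasts. GAPDH and ACTB thus differed in direction between the young fractions. In RNA from bulk cells, fewer transcripts per cell and fewer cells with the transcript cannot be told apart.

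RN7SK was among the most abundant named RNAs of the cells. In whole cells it reached 31239 FPKM in the young and 23299 FPKM in the senescent library, and in mitoplasts 795 FPKM in the young and 1194 FPKM in the senescent one. Among all named genes it ranked 2 in the young and 5 in the senescent whole-cell library, and 109 and 28 in the young and senescent mitoplast libraries. Both whole-cell libraries were thus far above both mitoplast libraries, and the senescent library was the lower one in whole cells and the higher one in mitoplasts. As a share of the FPKM of all named genes, RN7SK made up 3.13% and 2.82% in young and senescent whole cells. In mitoplasts the share was 0.0500% in young and 0.214% in senescent cells. The share depends on its base. Of all FPKM, with unnamed transcripts included, RN7SK made up 1.27% and 0.573% in young and senescent whole cells. On that base it made up 0.00325% and 0.00451% in young and senescent mitoplasts.

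**Figure D1:**
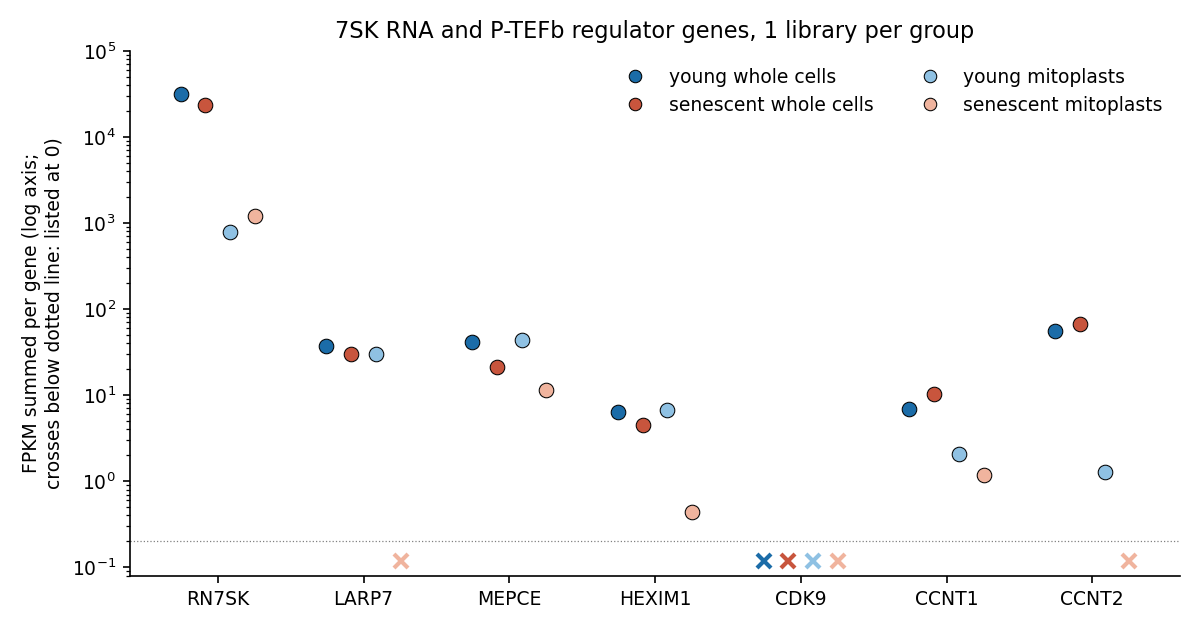
Level of each of the 7 genes in the 4 libraries, as FPKM summed over annotated transcripts on a log axis; each point is 1 library, and crosses under the dotted line are genes listed at 0. RN7SK lies between 795 and 31239 FPKM, and no other gene of the group exceeds 67.5 FPKM. The crosses of CDK9 stand for noncoding rows alone.

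Among the protein partners, LARP7, the La-related protein that protects the 3' end of 7SK, was at 36.8 FPKM in young and 30.2 FPKM in senescent whole cells. It was at 29.7 FPKM in young mitoplasts and listed at 0 in senescent mitoplasts. An exact 0 in such a file can be a failed estimate, so no fold is given against it. MEPCE, the methylphosphate capping enzyme, was at 41.6 and 21.1 FPKM in young and senescent whole cells, and at 43.6 and 11.4 FPKM in young and senescent mitoplasts. For MEPCE both senescent libraries were below both young ones. HEXIM1, the P-TEFb inhibitor, was at 6.42 and 4.52 FPKM in young and senescent whole cells, and at 6.74 and 0.435 FPKM in young and senescent mitoplasts. HEXIM1 thus had 3 values between 4.52 and 6.74 FPKM and 1 low value, in senescent mitoplasts.

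Of the kinase genes, CCNT1, which encodes cyclin T1, was at 6.99 FPKM in young and 10.3 FPKM in senescent whole cells, and at 2.08 and 1.18 FPKM in the mitoplast libraries. CCNT2, which encodes cyclin T2, was at 56.1 and 67.5 FPKM in whole cells, at 1.26 FPKM in young mitoplasts and listed at 0 in senescent mitoplasts. For both cyclins the whole-cell values were above the mitoplast values, and the senescent library was the higher one in whole cells. Cyclin T2 FPKM was 8.03 times that of cyclin T1 in young and 6.54 times in senescent whole cells, and 0.607 times in young mitoplasts. CDK9, which encodes the kinase, had 3 rows, all noncoding processed transcripts, and these were listed at 0 in all 4 libraries. No coding transcript was matched to CDK9, so the level of its mRNA is not known here. Another annotated transcript of the CDK9 locus, without a gene symbol in the tables used, was listed at 0 except in the senescent whole-cell library, at 2.61 FPKM.

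The ratio of RN7SK to each partner, all in FPKM, was lowest in young mitoplasts for LARP7, MEPCE, HEXIM1 and CCNT1, and highest there for CCNT2. RN7SK was 848 times LARP7 in young whole cells, 770 times in senescent whole cells and 26.8 times in young mitoplasts. Against MEPCE it was 751, 1107, 18.2 and 104 times, in the order young whole, senescent whole, young mitoplast and senescent mitoplast. Against HEXIM1 it was 4866, 5158, 118 and 2743 times in the same order. Against CCNT1 it was 4472, 2260, 382 and 1009 times. Against CCNT2 it was 557, 345 and 629 times in the first 3 libraries, with CCNT2 listed at 0 in senescent mitoplasts. These are ratios of RNA levels per length and say nothing of the proteins.

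Senescent and young whole cells were compared first, as log2((FPKM + 1)/(FPKM + 1)), a scale on which differences of low genes are understated. A ratio of 1 or more in size was counted as past the fold, among genes at 5 FPKM or more in 1 of the libraries. Over the 9336 genes tested 39.9% were past it, 16.8% higher and 23.1% lower, and the median gene stood at −0.21. Of the 7 members 6 could be compared and 0 were past the fold. RN7SK had a log2 ratio of −0.42, which was −0.21 from the median gene and at percentile 41.6 of all genes. LARP7 had −0.28, HEXIM1 −0.43 and MEPCE −0.95, the value closest to the fold. Cyclin T1 and cyclin T2 had positive ratios of 0.50 and 0.26. The median of the 6 members was −0.35. Each of these 6 signs was the same under all alternatives that gave the gene a value.

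In mitoplasts, where a log2 ratio of 2 or more in size was required, senescent against young gave 57.2% of 8636 genes past the fold, 18.6% higher and 38.7% lower, with the median gene at −1.10. Of the 7 members 4 passed the filter, 2 were lower past the fold and 0 higher. The lower members were HEXIM1, at −2.43 and 15.5-fold lower in FPKM, and LARP7, listed at 0 in senescent mitoplasts. With an equal sum over named genes HEXIM1 was at −1.55, under the fold, and RN7SK was past it as higher, so that 1 member was lower and 1 higher. MEPCE had −1.84. RN7SK had a positive ratio, 0.59, or 1.69 above the median gene and at percentile 69.0. That sign held under 3 rescalings, where the ratio was 2.10 with an equal sum over named genes, 1.45 with the median of ratios and 0.39 with an equal upper quartile. CCNT1 and CCNT2 were under 5 FPKM in both mitoplast libraries and were not counted. CCNT1 had −0.50, which turned to 0.43 with an equal sum and 0.03 with the median of ratios.

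**Figure D2:**
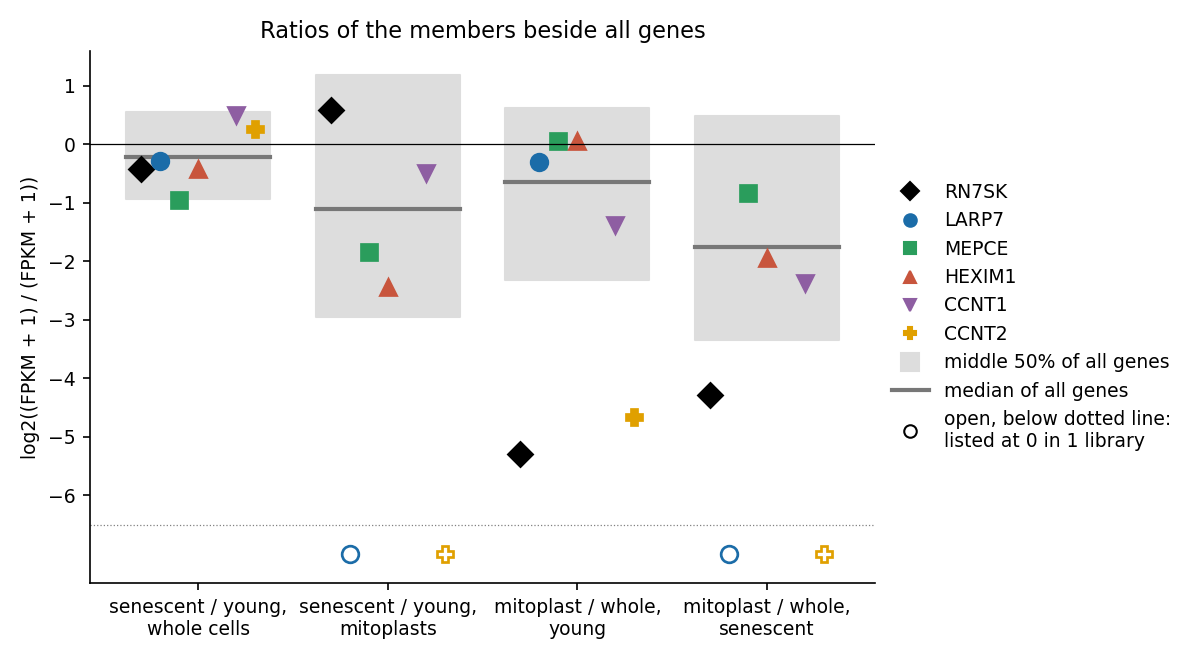
Log2 ratio of 6 genes in the 4 comparisons, with 1 library on each side. CDK9 is left out, since its rows, all noncoding, were listed at 0 throughout. The grey box and line are the middle 50% and the median of all genes tested. Open symbols under the dotted line were listed at 0 in 1 library, and HEXIM1 in the senescent fractions and CCNT1 and CCNT2 between mitoplasts were under 5 FPKM. In whole cells the members lie between −0.95 and 0.50, while RN7SK lies at −5.29 and −4.28 in the 2 comparisons of fractions.

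Mitoplasts were then compared with whole cells of the same age. FPKM is scaled within each library, so these ratios compare the composition of the libraries. They do not measure how much of an RNA stays with the RNase-treated mitoplasts. In young cells 39.6% of 9586 genes were past a log2 ratio of 2, 11.3% higher and 28.3% lower, and the median gene stood at −0.64. Of 6 members that passed the filter, 2 were lower past the fold: RN7SK and CCNT2. RN7SK was 39.3-fold lower in mitoplasts, a log2 ratio of −5.29 at percentile 3.41. CCNT2 was 44.4-fold lower, a log2 ratio of −4.66 at percentile 5.36. CCNT1 had −1.37. LARP7 had −0.30, MEPCE 0.06 and HEXIM1 0.06, each above the median gene; the sign of all 3 changed with the scaling, between −0.95 and 0.38 for LARP7, −0.59 and 0.76 for MEPCE, and −0.50 and 0.67 for HEXIM1.

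In senescent cells 63.1% of 9534 genes were past the same fold, 16.2% higher and 46.9% lower, and the median gene stood at −1.76. Of 5 members that passed the filter, 4 were lower past the fold: RN7SK, CCNT1, and LARP7 and CCNT2, both listed at 0 in senescent mitoplasts. RN7SK was 19.5-fold lower, a log2 ratio of −4.28 at percentile 13.4, which was −2.53 from the median gene against −4.66 in young cells. CCNT1 was 8.71-fold lower with −2.37, which became −1.59, under the fold, with the median of ratios; with protein-coding transcripts alone CCNT1 was under the filter. MEPCE had −0.83, above the median gene, and 0.26 with the median of ratios. The share of all genes lower past the fold was itself high, so the count of 4 is read beside that 46.9%. The fraction ratio of RN7SK was 1.01 higher in the senescent than in the young pair on the log2 scale, and 2.13 higher relative to the median gene of each pair.

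RMRP, the RNA of RNase MRP, and RPPH1, the RNA of RNase P, are other nuclear polymerase III transcripts and were set beside RN7SK. RMRP was at 29480 and 39149.6 FPKM in young and senescent whole cells and at 1178 and 1305 FPKM in the mitoplasts. RPPH1 was at 12641 and 23523 FPKM in whole cells and at 978 and 2042 FPKM in mitoplasts. RN7SK was the RNA of the 3 that was lower in senescent than in young whole cells. The ratio of RN7SK to RMRP was 1.06 in young and 0.595 in senescent whole cells, 0.675 in young and 0.915 in senescent mitoplasts. To RPPH1 it was 2.47 and 0.991 in whole cells, and 0.813 and 0.585 in mitoplasts. A ratio within a library is free of scaling and shows unequal change, not which RNA changed.

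Which annotated transcripts carried these sums differed from gene to gene. LARP7 has 13 annotated rows, of which 2 were above 0. The coding transcript LARP7-215, of 528 nt, held 88.2% and 87.8% of the sum in young and senescent whole cells and 100% in young mitoplasts. LARP7-211, of the nonsense-mediated decay class, was at 4.34 and 3.68 FPKM in whole cells, and the other 6 coding transcripts of LARP7 were listed at 0 in all libraries. MEPCE was carried by MEPCE-203 and MEPCE-204, classed as retained introns, at 16.0 and 19.4 FPKM in young whole cells. The coding MEPCE-202, of 2261 nt, was at 6.21 and 2.76 FPKM in young and senescent whole cells, at 3.83 FPKM in young mitoplasts and listed at 0 in senescent mitoplasts. Its order over the libraries was not that of the gene sum, which was highest in young mitoplasts.

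HEXIM1 has 1 transcript, which is coding and 3600 nt long, so its sum is free of the split between transcripts. CCNT1 was carried by CCNT1-202, a transcript of the nonsense-mediated decay class, at 4.77 and 7.59 FPKM in young and senescent whole cells. The coding transcript of CCNT1, 6973 nt long, was at 2.22 and 2.72 FPKM in whole cells and listed at 0 in both mitoplast libraries. CCNT2 was carried by short coding transcripts: CCNT2-206, of 663 nt, was at 34.7 and 45.1 FPKM and CCNT2-207, of 638 nt, at 15.2 and 15.7 FPKM in whole cells, and both were listed at 0 in mitoplasts. The longer coding CCNT2-202, of 4491 nt, was at 1.61 and 2.00 FPKM in whole cells, 0.563 FPKM in young mitoplasts and 0 in senescent mitoplasts. CCNT2-208, of the nonsense-mediated decay class and 2363 nt long, was at 4.61 and 4.74 FPKM in whole cells, 0.700 FPKM in young mitoplasts and 0 in senescent ones. In young mitoplasts CCNT2-208 made up 55.4% of the sum and CCNT2-202 44.6%, so the 44.4-fold ratio of CCNT2 compares sums of different transcripts. In whole cells the sums of LARP7, MEPCE and CCNT2 thus rest mostly on transcripts of 528 to 666 nt, whose length correction differs from that of the longer coding transcripts.

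**Figure D3:**
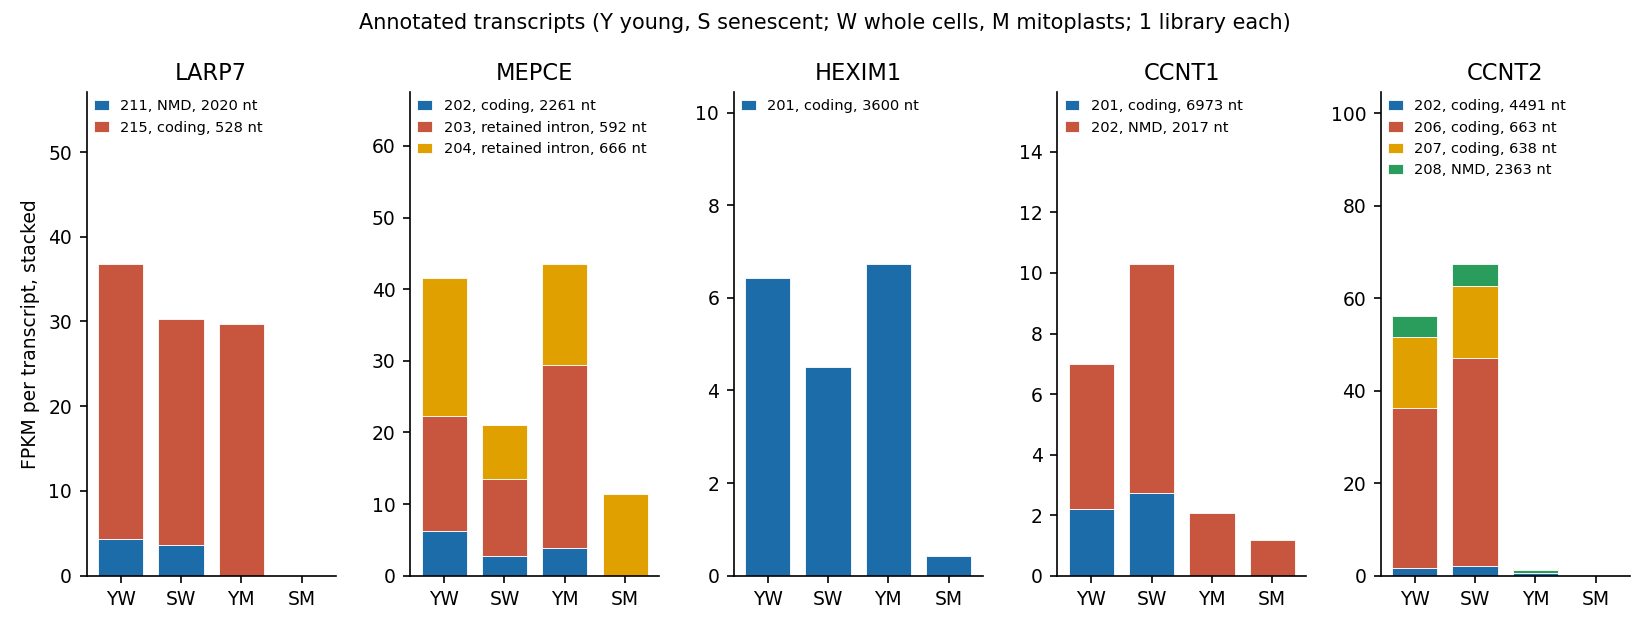
FPKM of each annotated transcript above 0 of LARP7, MEPCE, HEXIM1, CCNT1 and CCNT2, stacked within 1 bar per library (Y young, S senescent, W whole cells, M mitoplasts), with transcript class and length in the key. LARP7-215 makes up 88.2% of the LARP7 bar in young whole cells, and MEPCE-202, the coding transcript of MEPCE above 0, makes up 14.9% of its bar.

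Little FPKM was assigned to the 287 copies of 7SK, and how many reads assigned to RN7SK come from copies was not tested. In young whole cells 57 copies were above 0 with a summed 134.7 FPKM, which was 0.429% of the FPKM of RN7SK and its copies. In senescent whole cells 53 were above 0 with 241.0 FPKM, or 1.02%. In mitoplasts 3 copies were above 0 in each library, with sums of 9.51 and 2.06 FPKM. The copies matched RN7SK at a median of 84.2% of aligned bases (67.0% to 95.1%), and of 19 copies at 90% identity or more, 11 were above 0 in a library.

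RN7SKP255 and RN7SKP203, the copies printed above with 99 of 100 bases in common at the 5' end, were at 36.0 and 22.9 FPKM in young and 28.2 and 20.0 FPKM in senescent whole cells. RN7SKP255 lies within the annotated gene AL137230.2. RN7SK was 232 times the sum of all copies in young and 96.7 times in senescent whole cells. RN7SKP219 differed from them in sequence and in level. It was at 0.448 FPKM in young and 91.1 FPKM in senescent whole cells and listed at 0 in both mitoplast libraries. It matched RN7SK at 71.1% of aligned bases and lies within the gene DNAJC1, whose reads cannot be told apart from its own here.

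**Figure D4:**
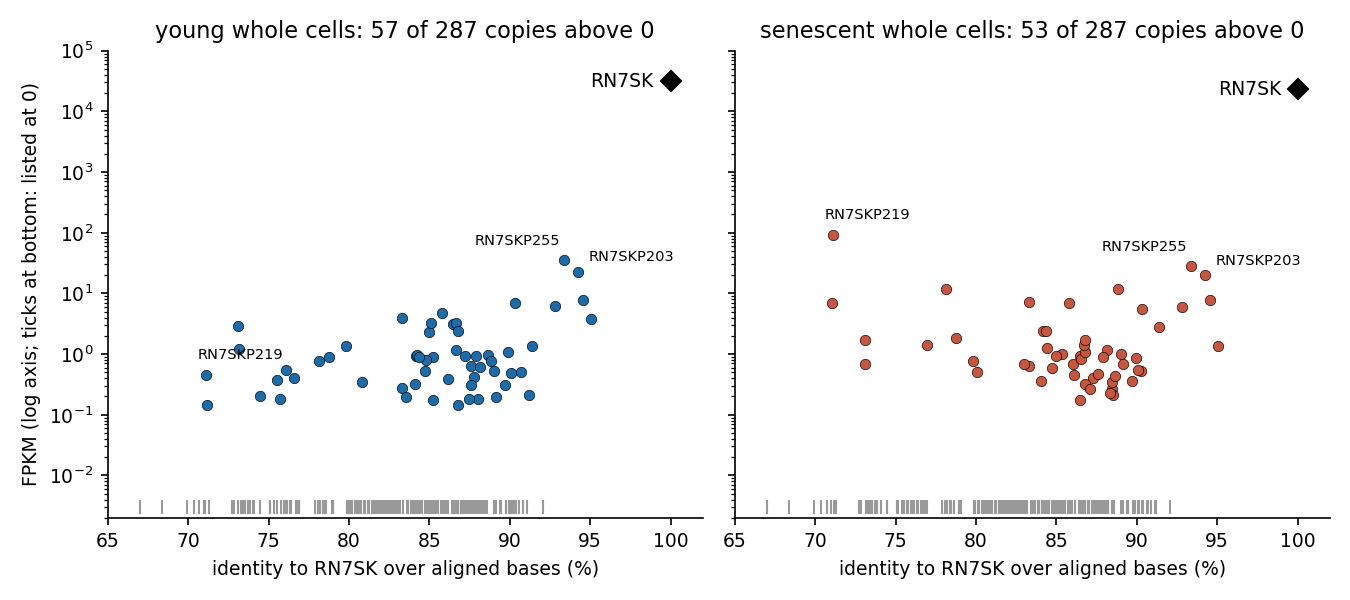
Level in FPKM (log axis) against identity to RN7SK for the 287 annotated 7SK copies, in young and senescent whole cells, 1 library each; the diamond is RN7SK and grey ticks are copies listed at 0. The highest copy is RN7SKP255 at 36.0 FPKM in young and RN7SKP219 at 91.1 FPKM in senescent whole cells.

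Transcription genes related to 7SK and P-TEFb, immediate early genes and other polymerase III RNAs were taken from 8 lists and counted by the same fold. The list of factors that bind 7SK or release P-TEFb had 15 genes above the filter in whole cells. It also holds LARP1 and LARP4, entered as relatives of LARP7 and not as 7SK-binding factors. Of the 15, 5 were lower past the fold in senescent cells, LARP1 among them, and 0 higher (23.1% and 16.8% of all genes), with a median of −0.75. HNRNPA1, which takes up 7SK freed of P-TEFb, was at 291.6 FPKM in young and 61.5 FPKM in senescent whole cells (log2 ratio −2.23). SRSF1, a splicing factor that binds 7SK, was at 478 and 121 FPKM (−1.97), and LARP1, a La-related protein, at 196.8 and 21.9 FPKM (−3.11). In both SRSF1 and LARP1 most of the young signal came from 1 short transcript, SRSF1-203 with 62.3% and LARP1-210 with 76.7%. HNRNPA2B1 and HNRNPR were the other 2. HEXIM2, which can stand in for HEXIM1, had the highest ratio of the list, 0.75, at 2.93 and 5.60 FPKM.

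Of the super elongation complex 4 of 10 genes passed the filter, with 1 higher and 1 lower. Among all genes in whole cells 16.8% were higher and 23.1% lower past the fold, with the median gene at −0.21. AFF1, a scaffold of the complex, was at 225 FPKM in young and 454 FPKM in senescent whole cells (1.01), just past the fold, and the elongation factor gene ELL was at 10.7 and 2.15 FPKM (−1.89). Pausing and elongation factors, the targets of P-TEFb among them, had 6 of 14 lower, 0 higher and a median of −0.66. SUPT5H, the DSIF subunit that P-TEFb phosphorylates, was at 116 and 5.35 FPKM (−4.20), with 92.6% of the young value in the 364-nt transcript SUPT5H-206. SSRP1, a subunit of the histone chaperone FACT, was at 20.1 and 3.93 FPKM (−2.09) from a single coding transcript of 2819 nt. NELFB, a subunit of the negative elongation factor, was at 13.0 and 4.46 FPKM (−1.36). NELFCD, NELFE and SUPT16H were also lower past the fold, the first 2 listed at 0 in senescent whole cells.

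Of the other kinases and cyclins of transcription 1 of 9 was higher and 2 were lower. Their median was −0.12, which turned to between 0.06 and 0.15 under the 3 rescalings. The counts of this paragraph stand beside 16.8% higher and 23.1% lower among all genes, with the median gene at −0.21. CDK7, the kinase of TFIIH, was at 6.11 FPKM in young and 93.3 FPKM in senescent whole cells (3.73), of which 80.5% came from CDK7-206, a transcript of the nonsense-mediated decay class. CCNC and CDK13 were lower. CCNC, which encodes cyclin C, was at 117 and 40.1 FPKM (−1.53), with 88.7% of the young value in the 246-nt retained-intron transcript CCNC-208. Its coding transcripts alone were at 10.1 and 13.2 FPKM, a log2 ratio of 0.36. RNA polymerase II subunits had 3 of 10 lower, 0 higher and a median of −0.56, and POLR2A, the largest subunit, was at 43.6 and 18.6 FPKM (−1.19). Factors that transcribe the 7SK gene had 1 of 17 higher and 2 lower, with a median of −0.43. SNAPC3, a subunit of the snRNA-activating complex, was at 7.87 and 25.5 FPKM (1.58), and the promoter-binding factor ZNF143 at 59.1 and 9.69 FPKM (−2.49).

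Immediate early genes, many of which are controlled by pause release, had 1 of 10 higher and 3 lower, with a median of −0.66. These counts and those of the polymerase III RNAs stand beside 16.8% higher and 23.1% lower among all genes. EGR1, a growth-response transcription factor, was at 29.3 FPKM in young and 3.28 FPKM in senescent whole cells (−2.83). JUNB, of the AP-1 family, was at 20.2 and 3.72 FPKM (−2.17), and KLF2, a Krüppel-like factor, at 3.21 and 23.0 FPKM (2.51). Of the polymerase III RNAs other than 7SK, a list of 9 above the filter that includes RMRP and RPPH1, 3 were higher past the fold and 2 lower. Among these, 1 of the higher and 1 of the lower were listed at 0 in 1 of the libraries. The median of the 9 was 0.44. The Y RNA RNY1 was at 642 and 1476 FPKM (1.20), and the vault RNA VTRNA1-1 at 486 and 986 FPKM (1.02).

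In the comparisons with mitoplasts the lists were mostly lower, as all genes were. Between mitoplasts, senescent against young, 6 of 14 factors that bind 7SK or release P-TEFb and 5 of 15 pausing and elongation factors were lower past the fold, beside 38.7% of all genes. Higher past the fold were 0 of the former and 1 of the latter, SUPT5H, beside 18.6% of all genes. The young mitoplast library listed SUPT5H at 0, while its senescent mitoplast value was 54.4 FPKM. Its direction there was opposite to that in whole cells, where its log2 ratio was −4.20. The direction between mitoplasts rests on that exact 0, which can be a failed estimate. EGR1 was at 26.0 FPKM in young and 1.52 FPKM in senescent mitoplasts, and ELL2, a subunit of the super elongation complex, at 30.7 and 3.52 FPKM. In the young fractions RNA polymerase II subunits had a median of 0.63 against −0.64 for all genes, with POLR2L at 210.3 FPKM in whole cells and 482 FPKM in mitoplasts; with an equal sum over named genes that median was −0.03. The polymerase III RNAs other than 7SK, RMRP and RPPH1 among them, had medians of −4.17 and −6.51 in the young and senescent fractions. Listed at 0 in 1 of the libraries compared were 3 of 8 and 6 of 8 of them, and with those left out the young median turned to 0.98, since RNY1, RNY3 and VTRNA1-1 were higher in young mitoplasts. VTRNA1-1 was at 2250 FPKM there and listed at 0 in senescent mitoplasts.

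**Figure D5:**
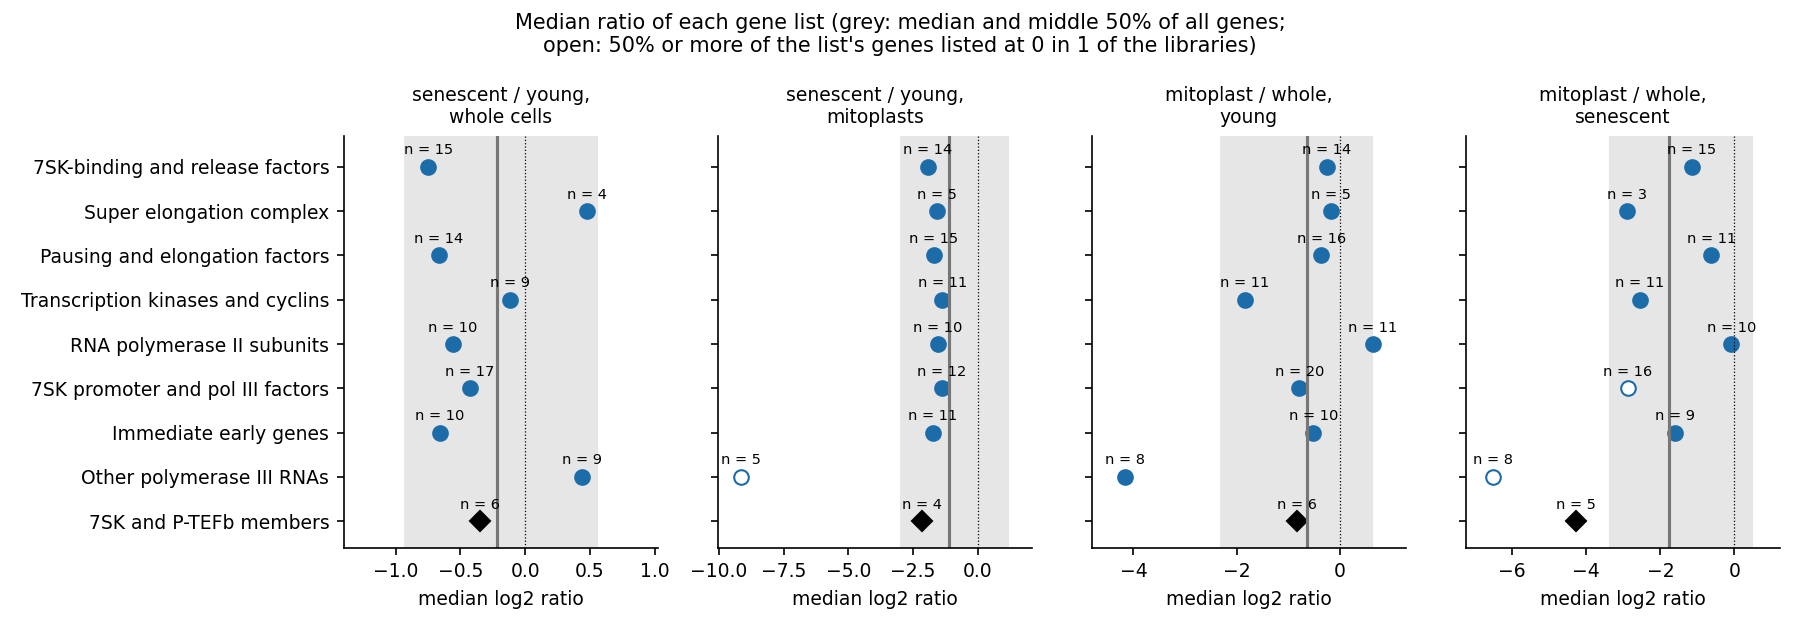
Median log2 ratio of 8 gene lists (circles) and of the 7SK and P-TEFb genes (diamonds) in the 4 comparisons, with the number of genes that passed the filter; grey marks the median and middle 50% of all genes, and open circles are lists with many genes listed at 0. In whole cells 7 of the 9 points lie below 0, and the super elongation complex and the polymerase III RNAs other than 7SK lie above it.

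The genes whose pattern over the 4 libraries was closest to that of RN7SK were found among 4907 genes at 10 FPKM or more in a library and above 0 in all 4. The measure was the root mean square distance of log2(FPKM + 1), centred over the libraries. RASA2 (0.17), ERC1 (0.19), WWC2 (0.23), PVT1 (0.24) and CUX1 (0.24) were the nearest. PVT1, a long noncoding RNA, was at 2103 and 1490 FPKM in young and senescent whole cells and at 65.8 and 115 FPKM in the mitoplasts. In young whole cells the leading transcript of each of the 5 was 392 to 604 nt long and noncoding or of the nonsense-mediated decay class. RMRP ranked 15 at a distance of 0.33 and RPPH1 ranked 145 at 0.77.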

How the data were processed

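RNA was sequenced from young and senescent WI-38 whole cells and mitoplasts, 1 library each, prepared with a TruSeq RNA V2 kit per the labels' protocols. That kit as supplied selects polyadenylated RNA, and 7SK, RMRP and RPPH1 carry no poly(A) tail; whether that step was used is not stated. The authors deposited FPKM values per transcript, per the file headers. Per the submitters' processing notes, the tools were Cuffdiff, Cufflinks 2.2.1 and TopHat2 2.0.14, and the build was hg19. The annotation release, strand setting, normalization options and treatment of reads with several matches were not given in the sources used here, and a gene cannot be told apart from an overlapping or antisense gene.

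Of 393483 transcript rows, 185591 carried an Ensembl identifier in at least 1 file, and 94.1% of these received a symbol from a table of gene names and GENCODE release 29. That annotation (GRCh38) gave names, classes, lengths and sequences alone. The 7SK row is annotated as RF00100.1 and was taken as RN7SK because it holds the RN7SK entry's sequence and place. FPKM was summed per symbol. Ratios were log2((A + 1)/(B + 1)), on genes at 5 FPKM or more in 1 of 2 libraries. A log2 ratio of 1 between whole-cell libraries, and of 2 where a mitoplast library was compared, counted as past the fold. With 1 library per group no test was possible, and genes are not replicates. Copies were aligned to RN7SK end to end with Biopython 1.88 (match 2, mismatch −1, free end gaps). The calculations, in Python 3.11.15 with pandas 2.3.3, were tested on simulated data.

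The text names all 7 members, their transcripts with 10% or more of a gene's sum or coding and above 1 FPKM, and of each list up to 3 genes per direction and comparison with the largest ratio, at 5 FPKM or more in 1 library and above 0 in both. It also names the 5 genes closest to RN7SK, and RMRP and RPPH1. Some genes of the lists are not reported here by name. HNRNPA2B1, HNRNPR, NELFCD, NELFE and SUPT16H were named beside that rule to account for a count, after their values were seen. The members, lists and rule were chosen with earlier results of these data known. All sample columns were used (0 were left out). Alternatives were a pseudocount of 0.1, other filters and folds, 3 rescalings, coding or longer transcripts alone, assembled transcripts added and 7SK copies added.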

Additional observations from a re-analysis of the deposited data

Results flagged for a closer look

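Ratios of opposite sign were looked for in 2 pairs of comparisons. Of the 7 genes, CDK9 had no ratio. Between the senescent-to-young ratios 3 had opposite signs (RN7SK, CCNT1 and CCNT2), and between the fraction ratios 2 had them (MEPCE and HEXIM1). Each count is to be read beside the share of all genes in its own pair, given below. Each difference rests on 4 single libraries and was not tested. Opposite signs were common: among the 11702 genes at 5 FPKM or more in a library, 34.1% had them between the senescent-to-young ratios of whole cells and mitoplasts, and 30.1% between the fraction ratios of young and senescent cells. The senescent-to-young log2 ratio of RN7SK was −0.42 in whole cells and 0.59 in mitoplasts, a difference of 1.01. For CCNT1 it was 0.50 in whole cells and −0.50 in mitoplasts, a difference of −0.998. For CCNT2 it was 0.26 and −1.18, a difference of −1.44, with the senescent mitoplast value listed at 0. The mitoplast-to-whole log2 ratio of MEPCE was 0.06 in young and −0.83 in senescent cells, a difference of −0.89. For HEXIM1 it was 0.06 in young and −1.94 in senescent cells, a difference of −2.003. Relative to the median gene of each comparison, the change in the fraction ratio was 2.13 for RN7SK, 0.12 for CCNT1, −0.32 for CCNT2, 0.23 for MEPCE and −0.88 for HEXIM1. The opposite signs of RN7SK and CCNT2 were kept under all 3 rescalings. With an equal sum over named genes the paired ratios had the same sign for CCNT1 (0.75 and 0.43), MEPCE (−0.59 and −0.30) and HEXIM1 (−0.50 and −1.86), and with the median of ratios for CCNT1 (0.65 and 0.03) and MEPCE (0.53 and 0.26). With an equal upper quartile all 5 kept opposite signs.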

How the results depend on the processing

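In all, 78 results were recomputed under 14 alternatives, of which 2 (the Ensembl name of that library's own file alone, and only genes above 0 in both libraries) were chosen after seeing the data. Of 1070 values, 914 stayed within 1.5 times the reported value and 155 were labelled moved, for a larger shift or a change of sign. The label reversed, given to 1, was kept for sign changes of RN7SK or of a ratio or median reported past the fold. Other changes of sign, as of the median gene between mitoplasts, are among the 155. No paired analysis was possible because each group holds 1 library; for the same reason no library could be left out. Depth limits the low values (HEXIM1, CCNT1 and the mitoplast values of CCNT2), since no count stands behind them. Assembled transcripts without a name hold most of the mitoplast FPKM, so a gene's value there can lack reads assigned to them.

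RN7SK kept the sign of its ratio in all 4 comparisons. With an equal sum over named genes, its log2 ratio was −5.96 for mitoplast against whole cells in young cells and 2.10 for senescent against young mitoplasts, and the difference of its fraction ratios was 2.25. With the median of ratios it was −3.13 for mitoplast against whole cells in senescent cells and 1.45 between mitoplasts, and the difference was 1.69. With an equal upper quartile it was −4.59 in the young fractions. These shifts follow from the scaling factors, which act on all genes alike: the median gene between mitoplasts moved from −1.10 to 0.98 with an equal sum and to −0.09 with the median of ratios. Members past the fold in the senescent fractions fell from 4 to 2 with only genes above 0 in both libraries, which leaves out LARP7 and CCNT2, and to 2 with protein-coding transcripts alone, which leaves out RN7SK and puts CCNT1 under the filter. With coding transcripts alone 1 member was past the fold in the young fractions. With only genes above 0 in both, 1 was past it between mitoplasts. The median of the polymerase III RNAs in the young fractions reversed from −4.17 to 0.98 with only genes above 0 in both libraries.

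Of the other members, the mitoplast-to-whole ratio of CCNT1 in young cells was −3.00 with the Ensembl name of the library's own file alone, against −1.37 as reported, and its ratio between mitoplasts was then 1.13. MEPCE had −1.91 in the senescent fractions with coding transcripts alone.

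Counts over all genes moved by over 1.5 times as follows. In whole cells 1569 higher became 2566 with a filter of 1 FPKM or none, 784 with a log2 ratio of 2 and 949 with coding transcripts alone, and 2160 lower became 914 with a log2 ratio of 2. Between mitoplasts 1603 higher and 3338 lower became 3003 and 1797 with an equal sum, and 685 and 1303 with only genes above 0 in both; 1603 higher became 2498 with the median of ratios and 628 with coding transcripts. In the young fractions 1087 higher became 639 with an equal sum and 1696 with an equal upper quartile, and 1087 higher and 2709 lower became 1806 and 4123 with a log2 ratio of 1, 427 and 1584 with only genes above 0 in both, and 536 and 1483 with coding transcripts. In the senescent fractions 1546 higher and 4473 lower became 690 and 1905 with only genes above 0 in both, and 1546 higher became 2435 with the median of ratios and 580 with coding transcripts. The share higher among genes past the fold was 42.1% in whole cells, against 55.7% with an equal sum and 53.6% with an equal upper quartile. Between mitoplasts it was 32.4%, against 62.6% with an equal sum and 46.3% with the median of ratios. In the young fractions it was 28.6%, against 15.8%, 46.3% and 38.8% with an equal sum, an equal upper quartile and the median of ratios. In the senescent fractions it was 25.7%, against 42.1% with the median of ratios.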

Other observations

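Among the 287 copies of 7SK, several besides RN7SKP219 had higher values in senescent than in young whole cells, and were picked out after their values were seen. RN7SKP69, within the gene DSTN and 88.8% identical to RN7SK over aligned bases, was at 0.766 FPKM in young and 11.9 FPKM in senescent whole cells. RN7SKP11, at 78.1% identity, was at 0.758 and 11.9 FPKM. RN7SKP295, an entry of 153 nt within HAPLN1, was listed at 0 in the young and was at 6.98 FPKM in the senescent whole-cell library. Each of these 3 was listed at 0 in both mitoplast libraries. RN7SKP9, at 94.5% identity, was at 7.73 FPKM in both whole-cell libraries. RN7SKP271, within CPNE1, was the highest copy in young mitoplasts, at 7.52 FPKM against 2.36 FPKM in young whole cells.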
